A study of Mus musculus with 11 samples.

Results

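Liver sinusoidal endothelial genes were followed in mouse liver during injury and repair after acetaminophen (APAP). The set was a fixed list of 10 genes, Stab1, Stab2, Clec4g, Lyve1, Fcgr2b, Oit3, Kdr, Bmp2, Dnase1l3 and Gpr182, chosen by symbol from the 31053 genes in the files, and each symbol matched a single gene. Spatial gene expression had been measured with the Visium assay, in which a frozen section is laid on an array of barcoded spots and transcripts are counted as unique molecular identifiers (UMIs) per gene and spot. There were 11 sections, 3 of uninjured liver at 0 h (named 0 h 2, 0 h 3 and 0 h 4) and, from injured livers that the labels mark POD, 2 taken 24 h after injury (24 h A and 24 h B), 2 after 36 h (36 h A and 36 h B) and 4 after 48 h (48 h A to 48 h D). Per the study's methods the mice were male C57BL/6JCrl animals of matched age, and the injured ones were fasted and then injected intraperitoneally with APAP. The labels do not say which mouse gave which section, and the study describes a single liver per time point for this assay. A p-value therefore covers only the spread between sections, and mouse, time and any batch that ran with a time cannot be told apart.

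Liver sinusoidal endothelial cells line the hepatic capillaries with a fenestrated wall that lacks a continuous basement membrane. They are known for clearing macromolecules, immune complexes and modified proteins from blood through scavenger and Fc receptors, and for supplying signals to the hepatocytes beside them, among them the bone morphogenetic proteins that set hepcidin transcription. Their gene expression is known to vary along the lobule between portal tract and central vein, and APAP kills hepatocytes mainly around the central vein, where the enzymes that activate the drug are concentrated.

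Promoter sequences were at hand for 5 of the 10 genes, Stab1, Stab2, Clec4g, Fcgr2b and Kdr (RefSeq, GRCm38.p6). The 250 bases ahead of the start are shown for Clec4g and Kdr, which fell at all 3 times, and for Stab1, which did not fall at any. Words bound by GATA and ETS factors, families known in endothelial transcription, were searched on both strands and stand in capitals. The GATA words were AGATAA with its close variant AGATAG, and besides them TGATAA with its close variant TGATAG. The ETS words were AGGAAG as well as its close variant CGGAAG.
Clec4g: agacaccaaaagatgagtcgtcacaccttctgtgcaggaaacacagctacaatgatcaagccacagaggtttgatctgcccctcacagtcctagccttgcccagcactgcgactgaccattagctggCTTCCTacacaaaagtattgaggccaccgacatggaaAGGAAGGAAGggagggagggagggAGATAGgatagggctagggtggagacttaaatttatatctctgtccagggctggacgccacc
Kdr: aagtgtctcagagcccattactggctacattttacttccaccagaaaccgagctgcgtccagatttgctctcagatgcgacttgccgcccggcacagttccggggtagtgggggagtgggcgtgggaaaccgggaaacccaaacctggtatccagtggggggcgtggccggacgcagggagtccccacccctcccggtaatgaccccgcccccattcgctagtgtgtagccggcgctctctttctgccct
Stab1: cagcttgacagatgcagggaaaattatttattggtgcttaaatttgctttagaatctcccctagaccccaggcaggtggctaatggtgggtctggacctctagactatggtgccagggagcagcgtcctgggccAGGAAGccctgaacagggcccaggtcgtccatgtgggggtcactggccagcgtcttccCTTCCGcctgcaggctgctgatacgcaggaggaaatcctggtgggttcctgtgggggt
The Clec4g window (chr8:3720652-3720901, minus strand) held 1 GATA word and 3 ETS words, 2 of which overlap. The Kdr window (chr5:75978456-75978705, minus strand) held neither, whereas the Stab1 window (chr14:31168642-31168891, minus strand) held 2 ETS words and no GATA word. Stab2 held 1 ETS word and Fcgr2b held neither. Among 32851 promoter windows of the same length, 26.5% held a GATA word and 39.2% an ETS word, so these matches describe the letters only.

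Between 1490 and 3466 spots per section passed the filters, and the summed counts ran from 31292663 to 67045372 UMIs per section. Median depth per spot ran from 15168.5 UMIs in 36 h A to 29950 in 0 h 2. Levels are given as CPM, the UMIs of a gene per 1e6 UMIs of the section, after TMM scaling, which sets the bulk of genes level across sections. The TMM factors were 0.784 to 0.811 in the 0 h sections and 0.983 to 1.17 in the injured ones. Without them, on plain totals, the median gene was shifted upwards by 0.37, 0.49 and 0.54 log2 units at 24, 36 and 48 h, against 0.05, 0.05 and 0.01 with them, and changes below are relative to that bulk. Endothelial transcripts were present in every section. A pan-endothelial list of 12 genes (Pecam1, Cdh5, Eng and others, none of them among the 10) summed to between 246 and 431 CPM. Both ends were the 36 h pair, with 246 in 36 h A and 431 in 36 h B. That pair also differed in a Kupffer cell list (671 and 1171 CPM) and in mitochondrial share (1.8% and 4.5%). Whether the splits of single genes within the 36 h pair follow this difference was not tested. In section sums, fewer cells of a type and less RNA per cell cannot be told apart. Adjusted p-values come from edgeR's quasi-likelihood test with Benjamini-Hochberg adjustment over all genes tested, and "called" means an adjusted p at or below 0.05.

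Most of the 10 genes fell after APAP, deepest at 24 h, and Stab1 and Lyve1 departed from the rest. At 24 h, 6 genes fell (Bmp2, Dnase1l3, Clec4g, Kdr, Fcgr2b and Oit3) where 18.6% of the 14821 genes tested were called lower, and 1 rose (Lyve1) where 23.1% were called higher. At 36 h, 5 fell (the same genes less Oit3) against a background of 12.4%, and none rose against 16.8%. At 48 h, 7 fell (Bmp2, Dnase1l3, Clec4g, Kdr, Fcgr2b, Oit3 and Gpr182) against 20.9%, and 1 rose (Stab1) against 23.3%. The median log2 change of the 10 genes was -0.87, -0.44 and -0.58 at the 3 times. These comparisons share the 0 h sections. On plain totals the split over all genes moved to 41.1% higher and 10% lower at 24 h, 47.7% and 2.98% at 36 h, and 60.2% and 4.04% at 48 h, and the members called were then 1 higher and 6 lower, 2 and 3, and 2 and 3.

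**Figure D1:**
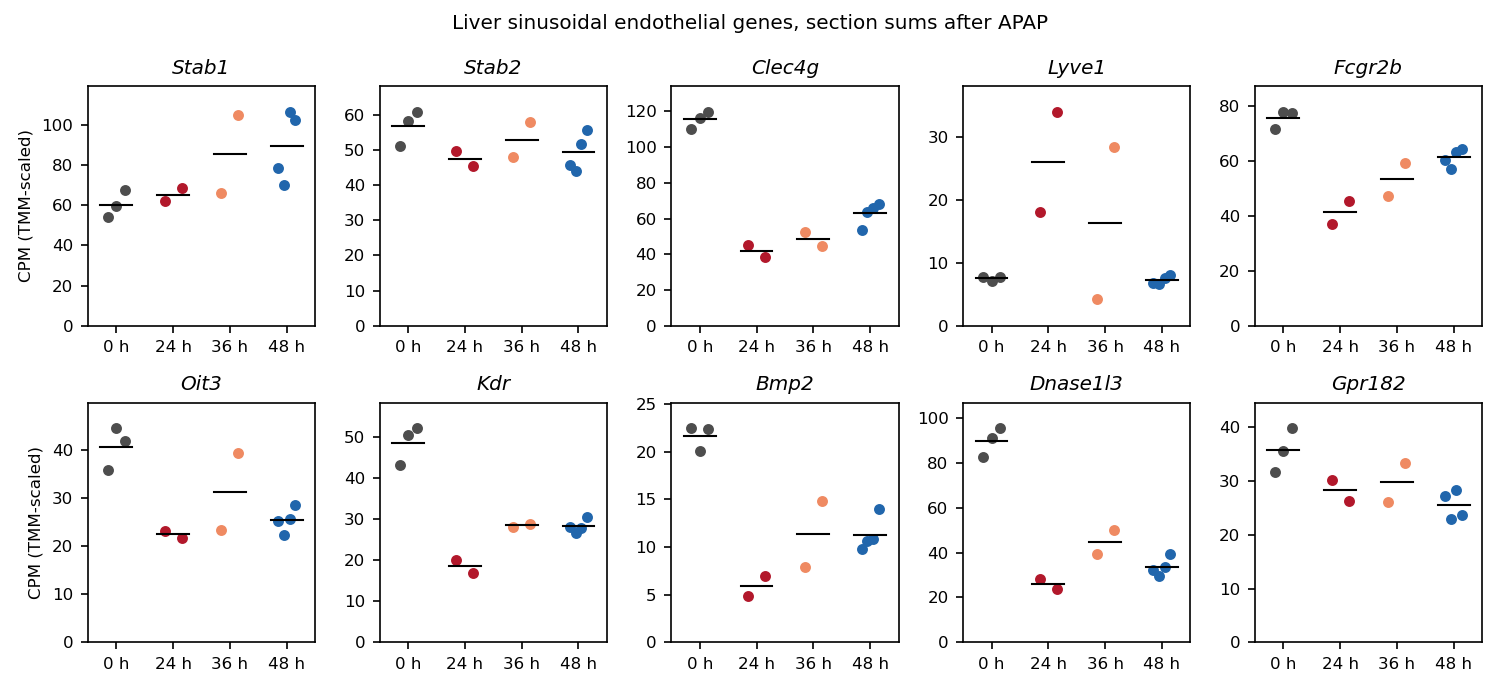
Each panel plots 1 gene, with TMM-scaled CPM on the vertical axis from 0 and the time after APAP on the horizontal axis. Points are sections and the line is the group mean. All injured sections of Clec4g, Kdr and Dnase1l3 lie below all 0 h sections, whereas Lyve1 is split between 4.35 and 28.6 CPM within the 36 h pair.

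The scavenger receptors behaved differently from each other. Stab2 (chromosome 10, 86841198 to 87008025, minus strand), which encodes stabilin-2, a hyaluronan and heparin clearance receptor, stood at 51.2, 58.1 and 60.8 CPM in the 0 h sections, 49.6 and 45.4 at 24 h, 47.9 and 57.9 at 36 h, and 45.8, 44.1, 51.7 and 55.6 at 48 h. Its groups overlapped at 36 and 48 h but not at 24 h, and no change was called, with log2 changes of -0.26 ± 0.14 (SE), -0.10 ± 0.13 and -0.20 ± 0.11, each of which turned positive on plain totals (0.072, 0.33 and 0.33, the last called with an adjusted p of 0.0252). With only the 0 h and 24 h sections fitted, Stab2 was called lower at 24 h (-0.29, adjusted p = 0.0489). Stab1 (chromosome 14, 31139013 to 31168641, minus strand) encodes stabilin-1, a related receptor also known from alternatively activated macrophages. It stood at 53.9, 59.7 and 67.3 CPM at 0 h, 62.2 and 68.3 at 24 h, 66.1 and 105 at 36 h, and 78.5, 70.0, 106 and 102 at 48 h. Every 48 h section lay above every 0 h section, whereas the 24 h pair lay among or just above them and the 36 h pair was split. The change was 0.11 ± 0.22 at 24 h (adjusted p = 0.709), 0.50 ± 0.22 at 36 h (adjusted p = 0.103) and 0.57 ± 0.19 at 48 h (adjusted p = 0.0294). The 48 h call was lost without 0 h 2 (adjusted p = 0.113), 0 h 3 (0.0846), 48 h C (0.0775) or 48 h D (0.0686), and at 36 h a call appeared without 36 h A (0.80, adjusted p = 0.0191) and on plain totals (0.94, adjusted p = 0.00433).

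Macrophage transcripts were also higher at 48 h, where Stab1 was called higher. A recruited macrophage list (Gpnmb, Trem2, Spp1, Ccr2, Ly6c2 and Cd68) summed to 65.8 to 90.5 CPM at 0 h, 193 and 197 at 24 h, 200 and 317 at 36 h, and 421, 521, 932 and 606 at 48 h, with 6 of 6 genes called higher at 48 h. A Kupffer cell list of 8 genes summed to 739 to 851 CPM at 0 h and to 979 and 885 at 24 h. It summed to 671 and 1171 at 36 h and to 870, 905, 1542 and 1295 at 48 h. At 48 h 3 of the 8 were called higher, where 23.3% of all genes were. The 24 h sums of this list lay above its 0 h range, although no change of Stab1 was called at 24 h. The sections highest in Stab1 at 48 h, C and D, were also the highest on both lists. The match was not particular to macrophages. Sections C and D were also highest on the pan-endothelial list (341 and 342 CPM against 271 and 263 in A and B). The same held for a stellate cell list (341 and 300 against 237 and 263). The part of macrophages in the Stab1 value was not tested.

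Lyve1 (chromosome 7, 110850607 to 110863239, minus strand), a hyaluronan receptor shared with lymphatic endothelium and some macrophages, stood at 7.84, 7.18 and 7.82 CPM in uninjured liver, and the 24 h pair held 18.1 and 34.1. The 36 h pair held 4.35 and 28.6 CPM, and the 48 h sections held 6.89, 6.70, 7.63 and 8.12. Both 24 h sections lay above all 0 h sections, 36 h A lay below and 36 h B above them, and the 48 h sections overlapped them. The change at 24 h was 1.78 ± 0.56 (adjusted p = 0.0285), equal to 342% of the 0 h level, but it was not called without 0 h 2 (0.0676), 0 h 3 (0.0747), 0 h 4 (0.0668) or 24 h B (0.199). At 36 h the value was 1.11 ± 0.56 (adjusted p = 0.161), and it became 1.91 without 36 h A (adjusted p = 0.000817) and -0.81 without 36 h B. At 48 h it was -0.05 ± 0.48, and 0.48 on plain totals. Without a filter on low counts the 24 h call was lost too (adjusted p = 0.0733), and on plain totals a call appeared at 36 h (1.53, adjusted p = 0.0408). Of 5 genes listed for lymphatic endothelium, 4 were tested at 24 h, and they moved apart. Of these 4, 0 were called higher (23.1% of all genes) and 1 lower (18.6%). The list summed to 68.2 to 79.3 CPM at 0 h, most of it Reln and Prox1. Which cells carried these transcripts was not tested, so the list is no clear measure of lymphatic endothelium. Reln averaged 53.0 CPM at 0 h and 17.7 at 24 h (-1.58 ± 0.26, adjusted p = 0.00101), Prox1 20.9 and 26.2 (0.32 ± 0.24, adjusted p = 0.306), and Pdpn 0.146 and 0.693 (2.21 ± 0.98, adjusted p = 0.0959). Relative to pan-endothelial UMIs Pdpn was called higher at 24 h (2.24 ± 0.73, adjusted p = 0.0398). The part of lymphatic endothelium in the Lyve1 value was not tested.

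Fcgr2b (chromosome 1, 170958617 to 170976547, minus strand) encodes the inhibitory Fc receptor through which sinusoidal cells take up small immune complexes, and it is also known from B cells and macrophages. It stood at 71.7, 78.0 and 77.6 CPM at 0 h, 37.1 and 45.6 at 24 h, 47.4 and 59.5 at 36 h, and 60.5, 57.3, 63.4 and 64.3 at 48 h. No injured section reached the 0 h range, and the 24 h pair was the lowest. It fell to 54.5% of the 0 h level at 24 h (log2 change -0.87 ± 0.13, adjusted p = 0.000507), 70.6% at 36 h (-0.50 ± 0.13, adjusted p = 0.0153) and 81.0% at 48 h (-0.30 ± 0.10, adjusted p = 0.0363). The 36 h call was lost without 36 h A (adjusted p = 0.0789) and the 48 h call without any single 0 h section or without section A, B or C of the 48 h group (0.0566 to 0.109), and on plain totals the 36 h and 48 h values were -0.069 and 0.22 and neither was called. The 4 B cell genes summed to 1.94 to 5.50 CPM over all sections, and none was called at any time.

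Clec4g (chromosome 8, 3707064 to 3720651, minus strand), the C-type lectin also called LSECtin, lost the most of its level at 36 h among the 10. It stood at 110, 116 and 120 CPM at 0 h, 45.4 and 38.3 at 24 h, 52.3 and 44.5 at 36 h, and 53.9, 63.5, 66.0 and 68.0 at 48 h. All injured sections lay far below the uninjured ones, and the 24 h pair and 36 h B were the lowest. It fell to 36.3% of the 0 h level at 24 h (-1.46 ± 0.14, adjusted p = 4.85e-05), 42.0% at 36 h (-1.25 ± 0.13, adjusted p = 0.000371) and 54.5% at 48 h (-0.88 ± 0.11, adjusted p = 0.000149).

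Of the secreted proteins, Dnase1l3 (chromosome 14, 7964533 to 7994573, minus strand), a nuclease that digests chromatin DNA outside cells, stood at 82.5, 90.8 and 95.3 CPM at 0 h, 28.1 and 23.7 at 24 h, 39.5 and 50.0 at 36 h, and 32.1, 29.7, 33.6 and 39.4 at 48 h. Every injured section was well below every uninjured one. It fell to 29.0% at 24 h (-1.79 ± 0.16, adjusted p = 3.73e-05), 50.0% at 36 h (-0.9996 ± 0.15, adjusted p = 0.00153) and 37.6% at 48 h (-1.41 ± 0.12, adjusted p = 2.87e-05), the lowest share of the 10 at 48 h. Oit3 (chromosome 10, 59422958 to 59441778, minus strand), a secreted zona pellucida domain protein of liver, stood at 35.8, 44.5 and 41.8 CPM at 0 h, 23.2 and 21.7 at 24 h, 23.3 and 39.4 at 36 h, and 25.2, 22.3, 25.6 and 28.6 at 48 h. Sections of 24 h and 48 h lay below all 0 h sections, while 36 h B fell inside their range. Its log2 change was -0.86 ± 0.20 at 24 h (adjusted p = 0.0058) and, for the 48 h sections, -0.68 ± 0.16 (adjusted p = 0.00602). At 36 h it was -0.38 ± 0.19 (adjusted p = 0.166), and without 36 h B it was called (-0.80, adjusted p = 0.0113). On plain totals the 36 h value was 0.052 and the 48 h call was lost (-0.15, adjusted p = 0.406).

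Bmp2 (chromosome 2, 133552159 to 133562885, plus strand), a ligand that drives hepcidin transcription in hepatocytes, stood at the lowest share of its 0 h level among the 10 at 24 h, within the error of Dnase1l3. It stood at 22.5, 20.04 and 22.4 CPM at 0 h, 4.90 and 6.96 at 24 h, 7.91 and 14.8 at 36 h, and 9.77, 10.6, 10.8 and 14.0 at 48 h. All injured sections were below all uninjured ones, with 36 h B and 48 h D the nearest to them. Bmp2 fell to 27.3% at 24 h (-1.87 ± 0.27, adjusted p = 0.000425), 52.6% at 36 h (-0.93 ± 0.25, adjusted p = 0.0206) and 52.3% at 48 h (-0.94 ± 0.20, adjusted p = 0.00388). The 36 h call was lost without 0 h 2 (adjusted p = 0.0531) or 36 h A (0.0872) and with only the 2 groups fitted (0.0531). On plain totals the 36 h and 48 h calls were both lost (-0.499 and -0.41, adjusted p = 0.0946 and 0.0796). Bmp6, the other endothelial hepcidin-inducing ligand, changed by -1.27 ± 0.22 at 24 h (adjusted p = 0.00116), by -0.13 ± 0.21 at 36 h (not called) and by -0.69 ± 0.17 at 48 h (adjusted p = 0.00776).

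Readouts of the same pathway moved apart. Among 14 BMP and hepcidin genes tested, the calls were 1 higher and 5 lower at 24 h, 2 and 2 at 36 h, and 1 and 3 at 48 h. Shares over all genes were 23.1% and 18.6%, 16.8% and 12.4%, and 23.3% and 20.9%. Id1, a direct target of BMP signalling that also answers to other signals, rose at all 3 times, by 1.13 ± 0.17, 2.25 ± 0.17 and 2.46 ± 0.16 (adjusted p = 0.000565, 6.5e-05 and 1e-05). Hamp, which encodes hepcidin, was at -0.20 ± 0.42 at 24 h, was called higher at 36 h (1.46 ± 0.42, adjusted p = 0.0258) and was at 0.61 ± 0.36 at 48 h. Its near-identical neighbour Hamp2 was called lower at 24 h (-5.47 ± 0.83, adjusted p = 0.000806) and at 48 h (-3.06 ± 0.55, adjusted p = 0.00176), and the assignment of reads between the copies is uncertain.

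Kdr (chromosome 5, 75932827 to 75978458, minus strand), the main signalling receptor for VEGF-A, stood at 43.2, 50.6 and 52.3 CPM at 0 h, 20.2 and 17.0 at 24 h, 28.04 and 28.99 at 36 h, and 28.2, 26.6, 27.98 and 30.6 at 48 h. Injured sections did not overlap the uninjured ones, and the 24 h pair lay below all the later sections. Kdr fell to 38.2% at 24 h (-1.39 ± 0.12, adjusted p = 3.73e-05), 58.6% at 36 h (-0.77 ± 0.12, adjusted p = 0.00162) and 58.3% at 48 h (-0.78 ± 0.10, adjusted p = 0.00016). Vegfa, its ligand, was at -0.47 ± 0.25, -0.30 ± 0.25 and -0.41 ± 0.20 with no call. Among 10 VEGF and angiopoietin genes tested, the calls were 2 higher and 1 lower at 24 h, 1 and 1 at 36 h, and 3 and 2 at 48 h. Shares over all genes were 23.1% and 18.6%, 16.8% and 12.4%, and 23.3% and 20.9%. Nrp1, a co-receptor of Kdr, was lower at the 3 times, with log2 changes of -1.08 ± 0.34, -1.53 ± 0.36 and -1.54 ± 0.27 (adjusted p = 0.0272, 0.0103 and 0.00125). Angpt2, a Tek ligand released by activated endothelium, rose at 24 h (3.79 ± 0.57, adjusted p = 0.000662) and stood higher at 48 h (1.37 ± 0.51, adjusted p = 0.0495). The decoy receptor gene Flt1 was called lower at 48 h (-0.66 ± 0.17, adjusted p = 0.0111).

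Gpr182 (chromosome 10, 127747276 to 127751732, minus strand), an atypical chemokine receptor of sinusoidal and lymphatic endothelium, changed less. It stood at 31.6, 35.6 and 39.8 CPM at 0 h, 30.1 and 26.4 at 24 h, 26.05 and 33.4 at 36 h, and 27.1, 22.9, 28.3 and 23.7 at 48 h. Sections of 24 h and 48 h lay below all 0 h sections and 36 h B lay within them. The change was -0.34 ± 0.15 at 24 h (adjusted p = 0.0944) and -0.26 ± 0.15 at 36 h (adjusted p = 0.206), and Gpr182 was called lower at 48 h (-0.48 ± 0.12, adjusted p = 0.00908), although on plain totals the 36 h and 48 h values were 0.17 and 0.047. At 24 h a call appeared with only the 0 h and 24 h sections fitted (-0.37, adjusted p = 0.0354) and without 36 h B (-0.37, adjusted p = 0.0376).

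From 24 to 36 h, 3 of the genes with a deep fall had higher values again. Kdr rose by 0.62 ± 0.13 (adjusted p = 0.0139), Dnase1l3 by 0.79 ± 0.16 (adjusted p = 0.0134) and Bmp2 by 0.95 ± 0.28 (adjusted p = 0.0448). The background was 7.04% of genes higher and 8.58% lower, and none of the 10 was called lower, Lyve1 being at -0.66 with its 36 h pair split. Bmp2 lost its call in nearly every leave-one-out fit, no member was called without 24 h B, and none with a block for the section letter, which the labels do not tie to a mouse or slide. From 36 to 48 h none of the 10 was called by edgeR or by DESeq2 (background 3.05%), and 3 had an unadjusted p under 0.05. Clec4g was at 0.38 and Lyve1 at -1.16 ± 0.52 in that comparison (adjusted p = 0.125 and 0.243).

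To ask whether these genes changed relative to other endothelial transcripts, each section was rescaled to its pan-endothelial UMIs. The 10 genes together made up 165, 164 and 175 UMIs per 100 pan-endothelial UMIs in the 0 h sections. The injured sections held fewer, with 107 and 98.8 at 24 h, 139 and 107 at 36 h, and 136, 135, 124 and 127 at 48 h. At 24 h, 6 genes were called lower (background 7.91%) and 1 higher (13.9%). The lower ones were Bmp2 (-1.82 ± 0.26, adjusted p = 9.21e-05), Dnase1l3 (-1.72 ± 0.28, adjusted p = 0.000247), Clec4g (-1.39 ± 0.31), Kdr (-1.32 ± 0.29), Fcgr2b (-0.82 ± 0.26) and Oit3 (-0.79 ± 0.25), and the higher one was Lyve1 (1.81 ± 0.38, adjusted p = 0.00302). At 36 h, 3 were lower (background 2.17%) and none was higher (10.5%), namely Clec4g (-1.16 ± 0.31, adjusted p = 0.0176), Bmp2 (-0.99 ± 0.25, adjusted p = 0.0125) and Dnase1l3 (-0.98 ± 0.27, adjusted p = 0.0193). At 48 h, 4 were lower (background 4.74%) and 1 higher (19.4%). Dnase1l3 (-1.30 ± 0.22, adjusted p = 0.000152), Bmp2 (-0.83 ± 0.20, adjusted p = 0.00462), Clec4g (-0.76 ± 0.25, adjusted p = 0.031) and Kdr (-0.65 ± 0.23, adjusted p = 0.0434) were lower and Stab1 (0.67 ± 0.21, adjusted p = 0.0256) was higher. With single sections left out, the count ran from 2 to 7 at 24 h (2 without 24 h B), 0 to 6 at 36 h and 2 to 6 at 48 h. Fcgr2b and Oit3 at 24 h lost their calls without any 1 section of 0 h or 24 h, and Clec4g, Kdr and Lyve1 without 24 h B. At 36 h Clec4g and Dnase1l3 lost theirs without any 1 section of 0 h, Clec4g also without 36 h B, and Bmp2 without 0 h 2 (adjusted p = 0.0596). At 48 h Clec4g and Kdr lost theirs in most of these fits, and Stab1 lost its call without any 1 section of 0 h and without 48 h A or 48 h C. Scaled instead by the study's endothelial markers that are not among the 10, Fcgr2b and Oit3 at 24 h (adjusted p = 0.0634 and 0.0626) and Stab1 at 48 h (0.0729) were not called.

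**Figure D2:**
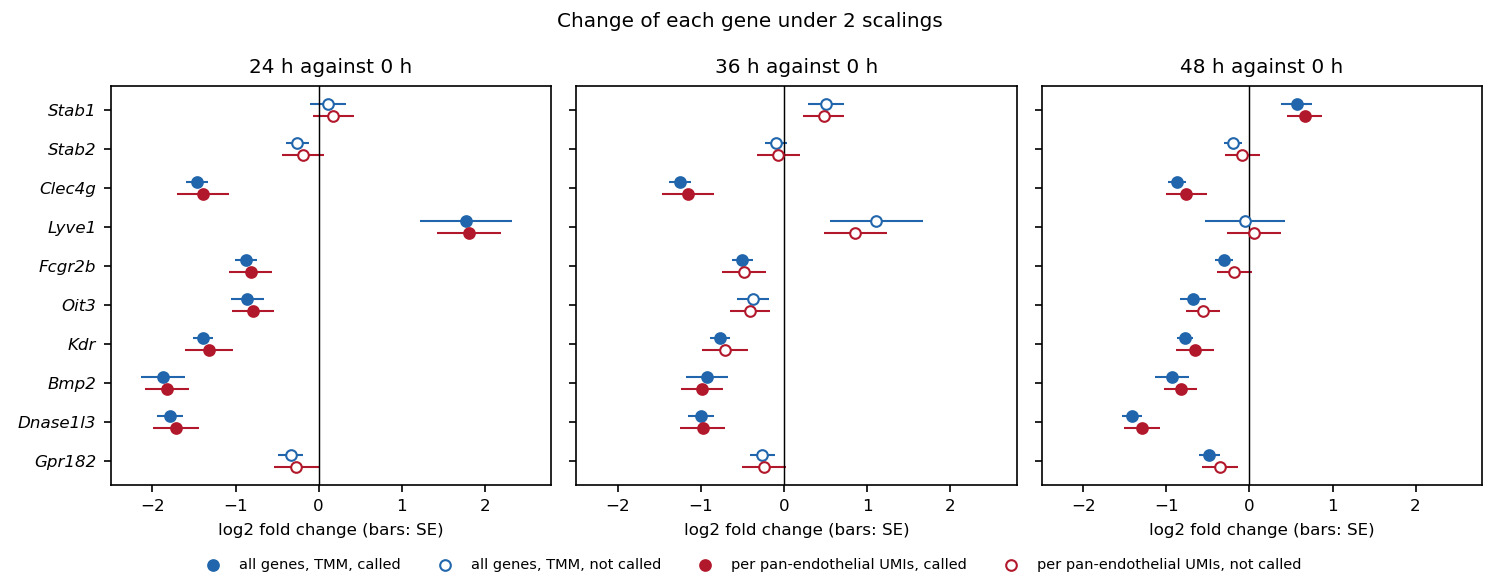
Log2 fold change of each gene against 0 h (horizontal axis, bars are SE) at 24, 36 and 48 h, scaled over all genes (blue) or to pan-endothelial UMIs (red), with filled points called. The 2 scalings lie close together for each gene, as for Bmp2 at 24 h with -1.87 and -1.82.

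The pan-endothelial genes moved less as a list, though some of them fell. Among the 11 tested, the calls were 1 higher and 2 lower at 24 h, 0 and 2 at 36 h, and 0 and 3 at 48 h, with medians of 0.29, 0.31 and -0.02. Shares over all genes were 23.1% and 18.6%, 16.8% and 12.4%, and 23.3% and 20.9%. Ptprb, an endothelial phosphatase, had log2 changes of -1.40 ± 0.24, -0.79 ± 0.23 and -0.73 ± 0.19 at the 3 times (adjusted p = 0.00104, 0.0269 and 0.00895). Tek, the angiopoietin receptor, was at -0.87 ± 0.20, -0.95 ± 0.20 and -0.45 ± 0.16 (adjusted p = 0.00491, 0.00611 and 0.0388). Egfl7 rose at 24 h (0.54 ± 0.18, adjusted p = 0.03).

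Other sinusoidal genes included several that fell with the 10. Among 12 on that list, the calls were 0 higher and 6 lower at 24 h, 1 and 5 at 36 h, and 2 and 3 at 48 h, with medians of -0.60, -0.32 and -0.23. Shares over all genes were 23.1% and 18.6%, 16.8% and 12.4%, and 23.3% and 20.9%. Ehd3, an endocytic trafficking protein, was at -2.57 ± 0.27, -1.59 ± 0.26 and -1.41 ± 0.20 (adjusted p = 9e-05, 0.00213 and 0.000379). Mrc1, the mannose receptor, was at -1.46 ± 0.19, -0.62 ± 0.19 and -0.49 ± 0.15 (adjusted p = 0.000267, 0.0314 and 0.0227). Maf, a transcription factor, fell at 24 h (-1.24 ± 0.28, adjusted p = 0.00489). Cd36, a fatty acid receptor that many cell types carry, was called higher at 36 h (0.92 ± 0.26, adjusted p = 0.0243) and 48 h (1.80 ± 0.23, adjusted p = 0.000213).

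Genes of continuous or activated endothelium went in both directions. Among 8 tested, the calls were 2 higher and 3 lower at 24 h, 3 and 1 at 36 h, and 3 and 0 at 48 h. Shares over all genes were 23.1% and 18.6%, 16.8% and 12.4%, and 23.3% and 20.9%. Apln, a ligand made by sprouting endothelial tip cells, had 5 UMIs in the 3 sections of 0 h together and 615 in the 2 sections of 24 h, where it averaged 8.15 ± 1.79 CPM (SD, n = 2), and it was back to 0.174 ± 0.0621 CPM (n = 4) at 48 h. Esm1, another tip cell gene, rose by 3.905 ± 0.60 at 24 h and 3.08 ± 0.60 at 36 h (adjusted p = 0.000775 and 0.00532). Cd34 rose at 36 h (1.72 ± 0.51, adjusted p = 0.0299) and 48 h (1.37 ± 0.45, adjusted p = 0.0296). Ly6a fell by 1.53 ± 0.40 at 24 h (adjusted p = 0.0119).

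Within a section, spots were ranked by a score of 12 of the study's periportal hepatocyte genes, none of them among the 10. The tertile with the lowest score (portal-poor) was set against the tertile with the highest (periportal), with 497 to 1154 spots in a class. Over whole sections, 7, 6 and 7 of the 12 were called lower than at 0 h at 24, 36 and 48 h. All genes gave 18.6%, 12.4% and 20.9%. After injury "periportal" therefore names a rank within a section and no fixed zone. In uninjured liver 5 of the 10 genes were higher in portal-poor spots, against a background of 5.15% higher and 4.78% lower, and none was lower. Bmp2 stood at 18.03, 16.9 and 16.8 CPM in periportal and at 23.4, 21.9 and 25.4 in portal-poor spots. Its portal-poor level was the higher in each of the 3 sections (0.44 ± 0.08, adjusted p = 0.0008). Stab2 (0.36 ± 0.07, adjusted p = 0.00168), Kdr (0.28 ± 0.05, adjusted p = 0.000443), Stab1 (0.26 ± 0.07, adjusted p = 0.0153) and Oit3 (0.25 ± 0.06, adjusted p = 0.00618) were also higher. Stab1 lost its call without 0 h 2 or 0 h 4 and Oit3 lost its call without any 1 of the 3 sections. Scaled to pan-endothelial UMIs, an alternative added after the data were seen, only Bmp2 (0.23 ± 0.09, adjusted p = 0.0399) and Gpr182 (-0.30 ± 0.07, adjusted p = 0.00196) were called.

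After injury Clec4g was lowest in the portal-poor spots. At 24 h it stood at 54.7 and 48.5 CPM in periportal and 35.1 and 28.2 in portal-poor spots, at 36 h at 60.9 and 54.1 against 43.1 and 35.4, and at 48 h at 60.9, 68.2, 79.1 and 78.7 against 45.3, 56.5, 49.3 and 58.5. Each injured section had the lower level in portal-poor spots, whereas each 0 h section had it there slightly higher, at 104, 109 and 109 against 111, 120 and 120. The within-section differences were -0.70 ± 0.09 (adjusted p = 1.7e-06), -0.55 ± 0.09 (adjusted p = 3.24e-05) and -0.46 ± 0.05 (adjusted p = 9.01e-08), though at 48 h the call was lost on plain totals (-0.06) and when spots were ranked by a central minus portal score (-0.05). Tested against the 0 h difference, these were lower by -0.82 ± 0.11 at 24 h (adjusted p = 2.14e-05), -0.67 ± 0.11 at 36 h (adjusted p = 9.06e-05) and -0.58 ± 0.08 at 48 h (adjusted p = 3.06e-06). Without the hepatocyte-low spots described below, the 24 h difference was -0.57.

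Stab1 and Lyve1 went the other way. At 48 h Stab1 stood at 56.7, 46.4, 68.7 and 65.9 CPM in periportal spots of sections A to D and at 103, 98.6, 160 and 148 in their portal-poor spots. All 4 portal-poor values were above all 4 periportal values (1.08 ± 0.06, adjusted p = 4.58e-14), and the difference exceeded that at 0 h by 0.83 ± 0.09 (adjusted p = 4.18e-08). It was 0.36 ± 0.08 at 24 h and 0.46 ± 0.08 at 36 h (adjusted p = 0.0021 and 0.000198), and the 24 h call was lost without 24 h A. Scaled to pan-endothelial UMIs, the 24 h and 36 h values were 0.11 and 0.23 and neither was called (adjusted p = 0.409 and 0.0558). Without hepatocyte-low spots the 48 h difference of Stab1 was 0.69, still called. Lyve1 at 24 h stood at 9.85 and 20.3 CPM in periportal and at 23.3 and 46.8 in portal-poor spots (1.22 ± 0.12, adjusted p = 9.22e-08), and the difference exceeded that at 0 h by 1.10 ± 0.18 (adjusted p = 0.00021). At 48 h it stood at 4.19, 4.98, 6.10 and 4.76 against 9.42, 8.98, 9.14 and 11.5 (0.97 ± 0.10, adjusted p = 1.79e-08). Its 36 h difference of 0.47 ± 0.15 (adjusted p = 0.0167) was lost without either section and per pan-endothelial UMI (0.22, adjusted p = 0.254). The macrophage genes Gpnmb (2.44), Trem2 (2.04) and Ccr2 (2.13) were also higher in portal-poor spots at 48 h, and their part in the Stab1 and Lyve1 values was not tested.

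In all, 4 genes were higher and 2 lower in portal-poor spots at 24 h, where the background was 13.5% and 14.9%. Besides those above, Stab2 (0.37 ± 0.10, adjusted p = 0.00535) and Bmp2 (0.50 ± 0.17, adjusted p = 0.0305) were higher and Gpr182 was lower (-0.41 ± 0.08, adjusted p = 0.000297). Stab2 lost its call without 24 h B and per pan-endothelial UMI. Bmp2 lost its call without either 24 h section, with narrower outer classes of spots (adjusted p = 0.0737), by central minus portal ranking (0.125), without hepatocyte-low spots (0.32, adjusted p = 0.316) and per pan-endothelial UMI (0.24, adjusted p = 0.279). Gpr182 lost it without 24 h A, on plain totals (-0.15, adjusted p = 0.201) and without hepatocyte-low spots (-0.25, adjusted p = 0.053). At 36 h, 2 were higher and 2 lower, against 13.7% and 14.9%, the second lower one being Gpr182 (-0.25 ± 0.08, adjusted p = 0.0209), which was lost without either section and by central minus portal ranking and was 0.022 on plain totals. At 48 h, 5 were higher and 2 lower, against 35.0% and 30.5% of all genes. Oit3 (0.51 ± 0.05, adjusted p = 1.78e-08), Stab2 (0.36 ± 0.06) and Fcgr2b (0.28 ± 0.05) were higher. Per pan-endothelial UMI Oit3 (0.023, adjusted p = 0.76) and Stab2 (-0.13, adjusted p = 0.0747) were not called, and Fcgr2b was called lower (-0.21, adjusted p = 0.000639). Dnase1l3 was lower (-0.20 ± 0.06, adjusted p = 0.00406) but called higher on plain totals (0.19, adjusted p = 0.00312), and its call was lost without 48 h C.

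The portal-poor spots differed in make-up between times. Of 23 central zonation genes, 23 were called higher there at 0 h (background 5.15%). That count follows from how the lists were made, because the study drew its portal and central genes from spatial data. At 48 h, 2 of the 23 were called higher and 14 lower (35.0% and 30.5%). Of the 6 recruited macrophage genes, 0 were higher there at 0 h and 6 at 48 h. A changed difference is therefore no shift of a gene along an unchanged lobule. With that limit, the differences of Kdr and Bmp2 were smaller at 48 h than at 0 h. The portal-poor minus periportal difference of Kdr was 0.28 at 0 h and -0.00 ± 0.05 at 48 h, a change of -0.28 ± 0.07 (adjusted p = 0.00167), and at 36 h the change was -0.44 ± 0.09 (adjusted p = 0.00144). For Bmp2 the change at 48 h was -0.30 ± 0.11 (adjusted p = 0.0391) and for Dnase1l3 it was -0.28 ± 0.08 (adjusted p = 0.00961). Oit3 gained 0.25 ± 0.08 at 48 h (adjusted p = 0.0131) and Lyve1 gained 0.84 ± 0.17 (adjusted p = 0.000247). At 24 h the differences of Fcgr2b (-0.31 ± 0.09, adjusted p = 0.0244) and Gpr182 (-0.32 ± 0.10, adjusted p = 0.0233) were below those at 0 h. Changed differences numbered 1 higher and 3 lower at 24 h (background 7.03% and 10.2%), 0 and 2 at 36 h (8.36% and 11.8%) and 3 and 4 at 48 h (21.4% and 23.8%). Per pan-endothelial UMI the Kdr difference was 0.067 at 0 h (not called) and -0.48 at 48 h (adjusted p = 4.11e-09). That of Bmp2 was 0.23 and -0.34, both called. At 48 h Clec4g (-0.94), Dnase1l3 (-0.69), Gpr182 (-0.57) and Fcgr2b (-0.21) were also called lower on that scale, and Stab1 (0.60) and Lyve1 (0.48) higher.

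Spots poor in hepatocyte RNA were also set apart. Spots below the 1st percentile of uninjured spots on a score of 8 general hepatocyte genes were called hepatocyte-low. They numbered 571 and 425 at 24 h, 120 and 127 at 36 h, and 359, 200, 589 and 246 at 48 h, which was 6.09% to 25.8% of spots, and 9, 25 and 52 in the 0 h sections. The comparison was made within the 8 injured sections. Over whole sections, 7, 4 and 8 of the 8 score genes were called lower than at 0 h at 24, 36 and 48 h. Shares over all genes were 18.6%, 12.4% and 20.9%. The class is therefore no direct measure of injury. Whether spots entered it through loss of hepatocytes or a general fall of these transcripts was not tested. At 24 h, 2 genes were higher in these spots than in the others (background 9.32%) and 2 lower (10.8%), at 36 h 2 and 1 (12.2% and 14.6%), and at 48 h 5 and 3 (37.5% and 27.8%). By the study's own hepatocyte markers, 5 sections had enough such spots, 24 h A (30 spots) and the 4 sections of 48 h. The 24 h value then rested on 1 section, assumed to vary like those of 48 h, and 0 genes were called there, although Stab1 (0.51), Clec4g (-0.61), Lyve1 (0.95) and Gpr182 (-0.56) had larger differences in the same direction than in the 24 h pair. At 48 h 5 were called, without Stab2 (0.069), Lyve1 (0.29) and Gpr182 (-0.23).

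Clec4g was lower in hepatocyte-low spots of every injured section. It stood at 39.9 and 33.0 CPM against 56.0 and 49.8 in other spots at 24 h, 30.5 and 32.9 against 65.5 and 54.0 at 36 h, and 41.7, 54.9, 47.6 and 54.5 against 68.8, 80.1, 91.1 and 84.6 at 48 h. The differences were -0.54 ± 0.10, -0.90 ± 0.13 and -0.72 ± 0.06 (adjusted p = 5.39e-05, 6.09e-07 and 4.14e-13). Stab1 was higher there, at 158, 157, 222 and 259 CPM against 82.4, 69.3, 95.5 and 103 in the 48 h sections. No other-spot value reached a hepatocyte-low value at 48 h (1.17 ± 0.06, adjusted p = 1.32e-21), and the difference was 0.56 ± 0.09 at 36 h (adjusted p = 4.83e-06) and 0.25 ± 0.08 at 24 h (adjusted p = 0.0267, lost without either section or against spots at least 3 steps away). With the hepatocyte-low spots left out of the section sums, the 48 h change of Stab1 against 0 h was 0.30 (adjusted p = 0.203).

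Lyve1 was higher in hepatocyte-low spots at all 3 times (0.63 ± 0.11, 0.54 ± 0.18 and 0.60 ± 0.10, adjusted p = 5.7e-05, 0.0198 and 3.4e-06), but not called at 24 h without 24 h B (0.31, adjusted p = 0.32) or at 36 h without 36 h B (0.19, adjusted p = 0.84). Against spots at least 3 steps away neither was called (0.68 and 0.65, adjusted p = 0.104 and 0.0847), nor was the 36 h value with spots below the 5th percentile (0.30, adjusted p = 0.317). At 48 h Oit3 (0.33 ± 0.07, adjusted p = 3.65e-05), Fcgr2b (0.20 ± 0.06, adjusted p = 0.00185) and Stab2 (0.19 ± 0.06, adjusted p = 0.00593, lost without 48 h B) were also higher. Dnase1l3 (-0.36 ± 0.09, adjusted p = 0.00135) and Gpr182 (-0.20 ± 0.07, adjusted p = 0.0117) were lower at 48 h. On plain totals Dnase1l3 was at 0.041 (not called) and Gpr182 was called higher (0.20, adjusted p = 0.00634). Gpr182 was not called against spots at least 3 steps away (-0.15). Gpr182 was lower at 24 h too (-0.36 ± 0.10, adjusted p = 0.00706), a call lost without either section, below the 5th percentile (-0.14) and on plain totals (-0.13).

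Pan-endothelial transcripts were denser in these spots at 48 h (values below), and the comparison was repeated per pan-endothelial UMI, an alternative added after the data were seen. At 48 h, 8 of the 10 were then lower (background 65.2%) and Stab1 alone was higher (12.7%), by 0.53 ± 0.09 (adjusted p = 1.53e-09). Clec4g (-1.35), Dnase1l3 (-0.99), Gpr182 (-0.83) and Kdr (-0.60) were the lowest, and Stab2 (-0.45), Fcgr2b (-0.44) and Oit3 (-0.30) had turned from higher to lower. At 36 h, 6 were lower (32.4%) and none was higher (4.65%), with Clec4g at -1.26 ± 0.16 (adjusted p = 5.4e-13). At 24 h, 5 were lower (27.7%) and 1 was higher (3.89%), with Clec4g at -0.80 ± 0.13 (adjusted p = 1.27e-07) and Lyve1 at 0.35 ± 0.14 (adjusted p = 0.0357). Stab1 was not called at 24 h (-0.010) or 36 h (0.20, adjusted p = 0.236), nor Lyve1 at 36 h (0.088) or 48 h (-0.024). Which cells carried the pan-endothelial list in these spots was not tested. On the TMM scale 6 of 6 recruited macrophage and 8 of 8 Kupffer genes were higher there at 48 h (37.5% of all genes). Values per pan-endothelial UMI are therefore relative to the list and not to a count of endothelial cells.

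The profile by distance from hepatocyte-low spots at 48 h showed how local these differences were. On plain totals Stab1 stood at 194, 192, 263 and 310 CPM inside such spots in sections A to D, at 94.6, 79.1, 101 and 131 a single spot away, and at 63.4, 46.3, 68.7 and 80.2 at 3 to 4 spots. It was highest inside and had flattened by 2 spots in every section. Clec4g stood at 51.2, 66.8, 56.5 and 65.3 inside and at 64.6, 80.1, 86.8 and 80.1 a single spot away, and rose across that border in every section. The pan-endothelial list stood at 5.84, 5.61, 6.32 and 7.20 UMIs per 10000 inside against 2.38, 2.26, 2.95 and 3.25 at 3 to 4 spots. The recruited macrophage list stood at 15.01, 16.9, 25.2 and 21.7 against 2.87, 4.28, 6.26 and 4.48, and the Kupffer list at 23.97, 23.0, 34.4 and 34.9 against 7.28, 6.87, 11.4 and 11.03. All 3 lists were highest inside, and their part in the profiles of the single genes was not tested.

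**Figure D3:**
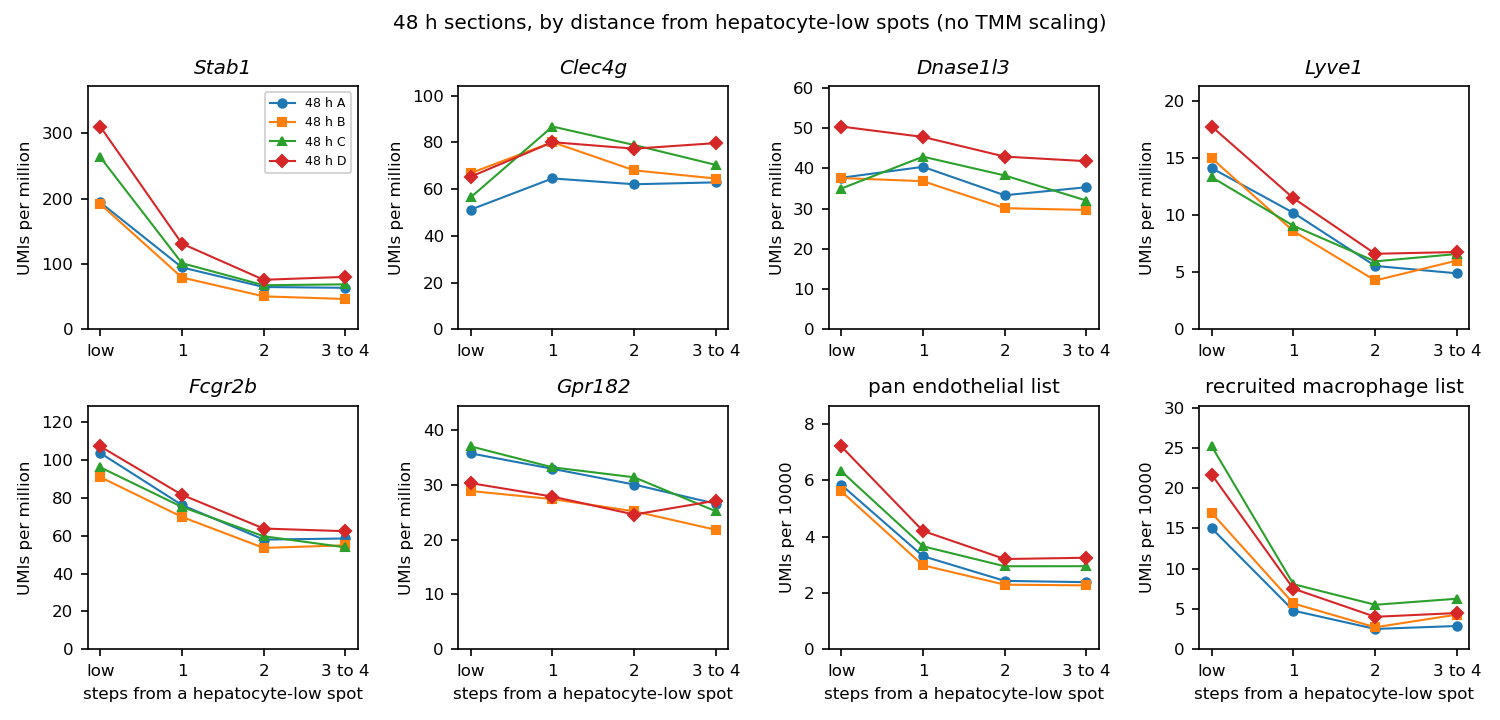
CPM (single genes) or UMIs per 10000 (lists) on plain totals, by distance in spots from the nearest hepatocyte-low spot (horizontal axis, low means inside), with a line for each of the 4 sections at 48 h. Stab1 drops from 192 to 310 inside to 46.3 to 80.2 at 3 to 4 spots, and Clec4g rises from inside to the first spot outside.

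Spots held few of these transcripts. With each spot thinned to 5000 UMIs, the 10 genes together gave a mean of 2.16 to 2.48 UMIs per spot at 0 h, 1.62 to 1.66 at 24 h, 1.90 and 2.41 at 36 h, and 2.01 to 2.47 at 48 h. Clec4g had a UMI in 37.7% to 39.1% of thinned spots at 0 h, 17.2% and 21.3% at 24 h, 20% and 26.2% at 36 h, and 25.5% to 32.0% at 48 h. Without thinning these shares were 75.3% to 86.4%, 47.9% and 55.0%, 48.9% and 55.7%, and 61.4% to 84.0%. A spot covers a small region that can hold several cell types, so a share of spots is no share of cells.

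Over the 11 sections, 8 of the 10 genes ran together. The correlation of a gene's log2 CPM with the mean of the 10 standardised genes was 0.97 for Oit3, 0.92 for Bmp2 and Dnase1l3, 0.89 for Stab2, 0.88 for Kdr, 0.86 for Fcgr2b and 0.78 for Gpr182 and Clec4g, but 0.03 for Stab1 and -0.13 for Lyve1. Each gene is itself a part of that mean. Among 7083 other genes of at least 10 CPM, those most like the mean were Tmem204 (0.967), Cavin2 (0.964), H2-Aa (0.954), H2-Eb1 (0.945), Hyal2 (0.944), H2-Ab1 (0.943), Ccni (0.940) and Ptprb (0.940). The class II histocompatibility gene H2-Aa, for one, averaged 67.2, 16.1, 24.3 and 23.4 CPM at the 4 times. These sections share times and scaling, and the correlations are descriptions only.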

How the data were processed

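The authors made the Visium 3′ libraries from frozen sections and deposited, for each section, a table of raw UMI counts (31053 genes by 4992 barcodes, not normalised) from reads mapped to mm10 with Ensembl gene models. The submitters' processing notes name Space Ranger 1.0.0 and Seurat 4.1.1. From the deposited counts, the spots under tissue were filtered as in the study (800 genes or more, mitochondrial share of 20% or less, without its manual removal of isolated spots) and summed per section, or per class of spots within a section. Sums were tested in R 4.3.3 with edgeR 4.0.16 (limma 3.58.1, TMM scaling, quasi-likelihood test, Benjamini-Hochberg adjustment) over 14821 genes for section sums, 14013 for the portal comparison and 14358 for hepatocyte-low spots, with the section as a block within sections. Spots were thinned to 2000 UMIs before scoring. The fits were also run on simulated counts in which equal numbers of genes went up and down. The bulk of genes was not shifted there, so that run does not bear on the choice of scaling. All 10 genes and, from each list, the counts and up to 4 called genes with the largest change, plus partners of Bmp2 and Kdr, were named. The members and lists were chosen with earlier results of these data known. Alternatives were DESeq2 1.42.0, other scalings, filters and spot classes, and each section left out. Depth was 31292663 to 67045372 UMIs per section, and n counts sections throughout.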

Additional observations from a re-analysis of the deposited data

Results flagged for a closer look

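Of 22 groups of 4 values checked at 48 h, 1 held a section that stood apart by Dixon's test, and chance alone marks about 1 in 20 such groups. It was Clec4g per 100 pan-endothelial UMIs, at 24.14 in 48 h B against 19.8, 19.4 and 19.9 in the others.

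The portal-poor minus periportal difference changed from its 0 h value, by a test of the change itself, in 13 cases. At 24 h the difference was lower than at 0 h for Clec4g (-0.8233), Fcgr2b (-0.3121) and Gpr182 (-0.3217) and higher for Lyve1 (1.097). At 36 h it was lower for Clec4g (-0.6744) and Kdr (-0.444). At 48 h it was lower for Clec4g (-0.5751), Kdr (-0.279), Bmp2 (-0.2959) and Dnase1l3 (-0.2785), and higher for Stab1 (0.8293), Lyve1 (0.8421) and Oit3 (0.254). All values are on the log2 scale, and the cause was not tested. The make-up of the portal-poor spots changed between times, as given above, and its part was not tested either.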

How the results depend on the processing

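Of the alternatives to the counts of genes called, 196 stayed within 1.5 times the value reported and 29 moved beyond it. Of those for single genes, 1116 kept direction and side of the threshold, 141 lost the call, 8 gained it and 23 changed sign. The cause was not tested for any of them.

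Total-count scaling turned Stab2 to 0.072, 0.33 and 0.33 at 24, 36 and 48 h against 0 h, Oit3 (0.052) and Gpr182 (0.17) at 36 h, and Lyve1 (0.48), Fcgr2b (0.22) and Gpr182 (0.047) at 48 h, where the count became 5. In portal-poor spots it turned Gpr182 at 36 h to 0.022 and Dnase1l3 at 48 h to 0.19, the latter called. In hepatocyte-low spots it turned Dnase1l3 (0.041) and Gpr182 (0.20, called) at 48 h, and the 36 h count became 6. Scaling to pan-endothelial UMIs gave a count of 2 in portal-poor spots at 0 h and 6 in hepatocyte-low spots at 36 h. In portal-poor spots at 48 h it turned Stab2 (-0.13) and Fcgr2b (-0.21, called). In hepatocyte-low spots it turned Stab1 at 24 h (-0.010). There it also turned, at 48 h, Lyve1 (-0.024) and, each called, Stab2 (-0.45), Fcgr2b (-0.44) and Oit3 (-0.30). Ranking by central minus portal score gave Dnase1l3 0.039 at 48 h, and leaving out hepatocyte-low spots gave 0.011. Against spots at least 3 steps away the 24 h count in hepatocyte-low spots was 2, and by the study's hepatocyte markers it was 0, from 24 h A alone with all 4 differences larger than in the 24 h pair, and became 5 at 48 h, with no value at 36 h because too few spots qualified.

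For 36 h against 24 h the count was 0 when only the 2 groups were fitted, and 0 with the section letter as a replicate block (Kdr 0.62, Bmp2 0.90, Dnase1l3 0.79). The labels do not tie the letter to a mouse or slide, and it was not taken as a pairing. Deviations from the group mean, in sections that share a letter, correlated at -0.241 to 0.287. With 2 sections each at 24 h and 36 h, that pair of times gives a single value (0.287), which cannot decide on a pairing. The block was fitted for that comparison and for 48 h against 36 h alone, where the count was 0 with and without it. Sections of 0 h carry numbers and were not blocked. Leaving out single sections gave counts of 6 to 8, 4 to 6 and 6 to 8 at 24, 36 and 48 h against 0 h, 0 to 5 for 36 h against 24 h (0 without 24 h B, 5 without 36 h A) and 0 to 1 for 48 h against 36 h. Relative to endothelial genes the counts were 2 to 7, 0 to 6 and 2 to 6. In portal-poor spots they were 3 to 6 at 0 h, 3 to 6 at 24 h, 2 to 4 at 36 h and 6 to 8 at 48 h, and in hepatocyte-low spots 2 to 4, 2 to 4 and 7 to 8 at 24, 36 and 48 h. Among single genes, the change at 36 h against 0 h ran from -0.24 to 0.027 for Stab2 (positive without 36 h A) and from -0.81 to 1.91 for Lyve1 (negative without 36 h B).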

Other observations

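The other cell lists moved on their own courses. Marco, a scavenger receptor of resident macrophages, was higher than at 0 h by 4.04 ± 0.27, 3.42 ± 0.26 and 2.92 ± 0.24 log2 units at 24, 36 and 48 h (adjusted p = 2.1e-05, 7.6e-05 and 2.4e-05). Clec4f, a defining Kupffer cell lectin, was lower at 24 h (-1.02 ± 0.24, adjusted p = 0.00616) and 36 h (-0.72 ± 0.24, adjusted p = 0.0407), and was at -0.32 ± 0.19 at 48 h. For the list counts that follow, 23.1% of all genes were higher and 18.6% lower at 24 h. The shares were 16.8% and 12.4% at 36 h, and 23.3% and 20.9% at 48 h. Of the 8 Kupffer genes, 1 was higher and 3 lower at 24 h, and 1 and 1 at 36 h. Of 5 stellate cell genes, 2 were higher and 2 lower at 24 h and at 36 h, and 2 were higher at 48 h. Of 4 genes tested from the lymphatic list, whose source cells were not tested, 1 was higher and 1 lower at 36 h, and 1 was higher at 48 h. Of the study's 7 endothelial markers, which include Kdr and Stab2, Kdr alone was called, lower at each time. Pgf, a ligand of Flt1, had 4 UMIs in the 0 h sections together and 254 in those of 24 h, which averaged 3.55 ± 2.07 CPM (SD, n = 2), and the 48 h sections averaged 1.25 ± 0.878 CPM (n = 4).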
